A study of Homo sapiens with 18 samples.

Results

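The transcripts of 9 feedback inhibitors of the RAS and ERK pathway were examined in A375 cells, an established human melanoma line that carries an activating BRAF mutation. The genes were the ERK phosphatase genes DUSP4, DUSP5 and DUSP6, the Sprouty genes SPRY1, SPRY2 and SPRY4, and the Sprouty-related genes SPRED1, SPRED2 and SPRED3. They were taken by name as 9 rows of a table of 58721 Ensembl genes, and all 9 passed the filter on low counts that left 21060 genes for testing. The 6 groups of 3 libraries were TADA2B knockout cells of guide 2 with SOX10 overexpression, guide 2 knockout cells without it, guide 1 knockout cells with SOX10 overexpression, guide 1 knockout cells without it, control cells with SOX10 overexpression, and control cells. Control cells and control cells with SOX10 carried a guide to GFP, which has no target in human DNA. All groups therefore shared the A375 background and the presence of a guide. TADA2B encodes a subunit of the SAGA histone-modifying complex, and SOX10 is a lineage factor of neural crest cells and melanocytes. The sources used here do not give whether a line was 1 clone or a pool, nor what drove SOX10.

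Signals from growth factor receptors pass through RAS, RAF and MEK to the kinase ERK, and active ERK turns on the genes of its own inhibitors. DUSP4 and DUSP5 are nuclear phosphatases and DUSP6 is a cytoplasmic one, all of which remove the activating phosphates of ERK. Sprouty proteins act upstream, between receptor and RAF, and SPRED proteins bring the RAS inhibitor neurofibromin, the product of NF1, to the membrane. In melanomas with mutant BRAF, the transcripts of DUSP4, DUSP6, SPRY2 and SPRY4 are widely used as readouts of pathway output.

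Library totals ran from 58573910 to 79874237 counts, so that 3 counts corresponded to 0.0376 to 0.0512 CPM, the count scaled by the library total, before TMM adjustment of the library sizes. The lowest member count was 271, for SPRY1, and the highest was 29031, for DUSP4. The SD over the 3 libraries of a group was 0.758% to 10.2% of the mean over the 54 combinations of member and group, with a median of 2.38%. Per the labels, replicates are numbered 1 to 3 and nothing says that they were separate cultures, so the p-values cover the spread between libraries alone, and that spread may be technical. In knockout cells of guide 2, replicate 2 stood apart from the others of its group, with a chi-square per degree of freedom of 11.8 and 10.4 against them and 4.6 between them. The TADA2B transcript averaged 26.9 ± 1.07 CPM in guide 2 cells with SOX10, 28.8 ± 1.37 CPM in guide 2 cells, 25.3 ± 1.44 CPM in guide 1 cells with SOX10 and 26.0 ± 0.402 CPM in guide 1 cells, against 31.0 ± 0.581 CPM in control cells with SOX10 and 32.5 ± 0.318 CPM in control cells (SD, n = 3 each). A guide need not lower the transcript, so these values do not measure loss of the protein. SOX10 averaged 246 CPM in guide 2 cells with SOX10 and 43.4 CPM in guide 2 cells, 291 CPM in guide 1 cells with SOX10 and 83.6 CPM in guide 1 cells, and 452 CPM in control cells with SOX10 and 354 CPM in control cells.

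As a check of the labelled cell type, 10 melanocyte and melanoma markers were read. SOX10, MITF and PAX3 were above 1 CPM in all groups, while the pigment enzyme genes TYR and TYRP1 were under 1 CPM in all groups. The 10 markers summed to 341 to 349 CPM in guide 2 cells with SOX10, 149 to 157 CPM in guide 2 cells, 416 to 433 CPM in guide 1 cells with SOX10 and 184 to 192 CPM in guide 1 cells, against 751 to 755 CPM in control cells with SOX10 and 418 to 442 CPM in control cells. SOX10, which the study altered, made up much of these sums. The other 9 markers summed to 97.6 to 102 CPM in guide 2 cells with SOX10, 108 to 113 CPM in guide 2 cells, 126 to 135 CPM in guide 1 cells with SOX10 and 102 to 105 CPM in guide 1 cells, against 298 to 304 CPM in control cells with SOX10 and 77.2 to 77.7 CPM in control cells. Without SOX10 in the sum, knockout cells that did not overexpress SOX10 lay above control cells. MITF was the largest part of these sums, and averaged 92.1 CPM in guide 2 cells and 84.3 CPM in guide 1 cells, against 39.7 CPM in control cells. In control cells with SOX10 the largest part was DCT, at 156 CPM. The markers did not rise together in the test of knockout (mean of both guides) against control cells. Of the 9 tested, SOX10 among them, 6 were called lower and 3 higher, with a median log2 change of −0.46. Those lower included DCT (−3.89), S100B (−2.83) and S100A1 (−1.88), and those higher were MITF, PMEL and TYRP1. Summed markers of other cell types moved with the groups too. The 8 fibroblast markers summed to 36.9 to 56.1 CPM over the 4 knockout groups, against 7.95 to 15.1 CPM over both control groups, with COL1A2, COL3A1 and THY1 under 1 CPM in every group. LUM made up most of the knockout sums, with group means of 21.9 to 43.3 CPM, against 5.37 CPM in control cells with SOX10 and 2.61 CPM in control cells. In the same test of the knockout, 5 of the 7 fibroblast markers tested were called higher and 1, PDGFRA, lower. The 6 epithelial markers summed to 234 to 338 CPM over the knockout groups, against 141 to 177 CPM over the control groups, mostly from KRT8 and KRT18, while EPCAM and CDH1 were under 1 CPM in every group. In the same test of the knockout, 4 of the 5 epithelial markers tested were called higher and 1, KRT14, lower (log2 change −3.03). KRT14 averaged 0.368 CPM in guide 2 cells and 1.18 CPM in guide 1 cells, against 5.41 CPM in control cells. The 6 leukocyte markers summed to 18.3 to 21.7 CPM in knockout cells with SOX10 and 5.29 to 9.22 CPM in the other groups, mostly from LYZ, with PTPRC under 1 CPM in every group. The 4 endothelial markers summed to 28.3 to 35.2 CPM in knockout cells with SOX10, 1.89 to 2.31 CPM in knockout cells, 10.6 to 11.0 CPM in control cells with SOX10 and 3.28 to 4.55 CPM in control cells, with PECAM1 under 1 CPM in every group. KDR carried most of the higher sums, and the other 3 endothelial markers summed to 1.08 to 2.1 CPM in knockout cells with SOX10 and 1.39 to 2.05 CPM in knockout cells, against 0.205 to 0.43 CPM in control cells with SOX10 and 0.569 to 0.904 CPM in control cells. The part of these markers in the results was not tested. In bulk RNA, fewer cells of a type and less RNA per cell cannot be told apart.

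Promoter windows of 300 bases, 250 before a transcript start and 50 after it, are shown for 3 of the members that fell in the knockout and rose with SOX10 in knockout cells. SPRED1 also fell and rose in these comparisons, and its window is not shown. They are RefSeq sequences of build GRCh38.p14, each on the strand of its gene, 5′ to 3′. Capitals mark the letters CCGGAA on either strand, a longer form of the GGAA core bound by ETS factors, some of which ERK activates. SPRY2 is shown at the outermost of its 3 listed starts (chr13:80341077-80341376, minus strand), SPRY4 at its only listed start (chr5:142324198-142324497, minus strand) and DUSP6 at its only listed start (chr12:89352452-89352751, minus strand).
SPRY2: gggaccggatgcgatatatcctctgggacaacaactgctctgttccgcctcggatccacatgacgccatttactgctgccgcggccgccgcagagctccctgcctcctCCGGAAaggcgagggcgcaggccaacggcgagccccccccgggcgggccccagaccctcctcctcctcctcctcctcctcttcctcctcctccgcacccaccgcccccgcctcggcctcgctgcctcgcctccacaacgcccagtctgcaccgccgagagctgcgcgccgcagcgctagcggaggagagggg
SPRY4: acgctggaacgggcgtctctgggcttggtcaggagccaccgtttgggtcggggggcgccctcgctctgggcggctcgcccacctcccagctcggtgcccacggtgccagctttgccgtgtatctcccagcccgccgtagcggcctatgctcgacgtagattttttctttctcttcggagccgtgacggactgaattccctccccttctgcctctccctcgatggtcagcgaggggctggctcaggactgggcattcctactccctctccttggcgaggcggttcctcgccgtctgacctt
DUSP6: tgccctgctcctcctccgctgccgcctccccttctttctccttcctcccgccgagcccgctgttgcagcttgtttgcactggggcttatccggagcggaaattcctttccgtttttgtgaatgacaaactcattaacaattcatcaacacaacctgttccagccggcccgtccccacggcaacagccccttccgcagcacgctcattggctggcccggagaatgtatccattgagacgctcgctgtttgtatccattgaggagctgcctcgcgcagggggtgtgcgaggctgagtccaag
The SPRY2 window held CCGGAA once, starting at position −142 from the transcript start, and the other windows listed for SPRY2 did not hold it. The SPRY4 and DUSP6 windows did not hold CCGGAA, though both hold the shorter GGAA. The window listed for SPRED1 did not hold CCGGAA either. Of 12 windows listed for 7 members, 2 held CCGGAA, against 17.2% of 35116 promoters of the same length. The letters ACAAAG or ACAATG, which SOX proteins bind, stood in 4 of the 12 windows, among them the inner 2 windows of SPRY2, against 24.5% of all promoters. The AP-1 letters TGANTCA stood in 2 of the 12, against 7.71%, and the letters TGACGTCA and CACGTG stood in 0 of the 12, against 1.85% and 7.26%. Both strands were searched and none of the letter strings searched for contains another. A match describes the letters of a window and is not a bound site.

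Knockout of TADA2B lowered SPRY2, SPRY4, DUSP4, DUSP6 and SPRED1 and raised DUSP5 and SPRED3, while SPRY1 and SPRED2 did not pass the test. The mean of both guides was set against control cells with edgeR's quasi-likelihood test, adjusted over the 21060 genes, and a gene was called at an adjusted p under 0.05. Of the 9 members, 5 were called lower and 2 higher, where 29.5% of all genes tested were called lower, 28.6% higher and 58.1% in either direction. The median log2 change of the 9 was −0.58, and that of all genes was −0.01. Scaling by library size alone shifted that median for all genes upward by 0.155. It called 5 members lower and 3 higher, where 16.8% of all genes were then lower and 43.3% higher.

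The Sprouty genes SPRY2 and SPRY4 had the largest falls of the 9 in this comparison. SPRY2 (hg38 chromosome 13, 80335976 to 80340951), an inhibitor of receptor signalling to RAS and RAF, averaged 51.8 ± 1.60 CPM in guide 2 cells (SD, n = 3), with no library above 53.1 CPM, and stood at 66.4, 70.3 and 71.6 CPM in guide 1 cells, against 197, 204 and 204 CPM in control cells. Every knockout library lay below every control library, and the 2 guides did not overlap either. The fall was 3.36-fold (log2 change −1.75, SE 0.025, adjusted p = 9.36e-40). SPRY4 (chromosome 5, 142310427 to 142326455), a related inhibitor, had 31.9 to 32.9 CPM in guide 2 cells and 35.7 to 37.2 CPM in guide 1 cells, against 129 to 135 CPM in control cells, with no overlap. It fell 3.85-fold (log2 change −1.95, SE 0.041, adjusted p = 5.27e-25). SPRY1 (chromosome 4, 123396795 to 123403760) was the least abundant member per length. Guide 1 overlapped the control libraries and guide 2 did not, at 4.63 to 5.61 CPM in guide 2 cells and 5.32 to 5.75 CPM in guide 1 cells, against 5.72 to 6.42 CPM in control cells (log2 change −0.16, SE 0.079, adjusted p = 0.0785). A gene antisense to SPRY4 had 87 to 162 counts per library and shared 0 exon bases with it.

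The ERK phosphatase genes split by member. DUSP4 (chromosome 8, 29333064 to 29350668), which acts in the nucleus, had 220, 211 and 215 CPM in guide 2 cells and 315, 319 and 314 CPM in guide 1 cells, against 433, 425 and 438 CPM in control cells. The groups did not overlap, and guide 2 lay lowest. It was 1.66-fold lower in the mean of both guides (log2 change −0.73, SE 0.024, adjusted p = 5.36e-27). DUSP6 (chromosome 12, 89347232 to 89353271), its cytoplasmic counterpart, had 96.9, 95.5 and 97.0 CPM in guide 2 cells and 118, 121 and 121 CPM in guide 1 cells, against 161, 164 and 171 CPM in control cells. It too was lower in every knockout library, by 1.54-fold (log2 change −0.62, SE 0.024, adjusted p = 8.47e-25). An antisense gene shares 1875 exon bases with DUSP6 and had at most 33 counts in any library. DUSP5 (chromosome 10, 110497838 to 110511544), the other nuclear phosphatase and one selective for ERK, moved the other way. It had 61.7, 55.1 and 56.7 CPM in guide 2 cells and 50.4, 47.3 and 49.8 CPM in guide 1 cells, against 30.5, 28.1 and 29.1 CPM in control cells, and rose 1.83-fold with no overlap (log2 change 0.87, SE 0.040, adjusted p = 8.33e-22).

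The 3 SPRED genes went 3 ways. SPRED1 (chromosome 15, 38252326 to 38357249), whose product anchors neurofibromin and whose loss causes a syndrome like a mild neurofibromatosis, was lower at 119 to 129 CPM in guide 2 cells and 129 to 131 CPM in guide 1 cells, against 187 to 192 CPM in control cells. It fell by 0.58 on the log2 scale (log2 change −0.58, SE 0.025, adjusted p = 4.74e-23). SPRED2 (chromosome 2, 65310851 to 65432637), its close relative, overlapped between groups, at 75.0 to 78.5 CPM in guide 2 cells and 76.0 to 79.0 CPM in guide 1 cells, against 72.8 to 77.5 CPM in control cells (log2 change 0.04, SE 0.030, adjusted p = 0.251). With library-size scaling it was called higher, at a log2 change of 0.20 (adjusted p = 3.5e-07), which is close to the shift of all genes under that scaling. SPRED3 (chromosome 19, 38388421 to 38399587), the third member of the family, rose 1.39-fold, with 21.4 to 23.6 CPM in guide 2 cells and 21.7 to 24.4 CPM in guide 1 cells, against 15.2 to 17.9 CPM in control cells (log2 change 0.47, SE 0.052, adjusted p = 2.57e-10).

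**Figure D1:**
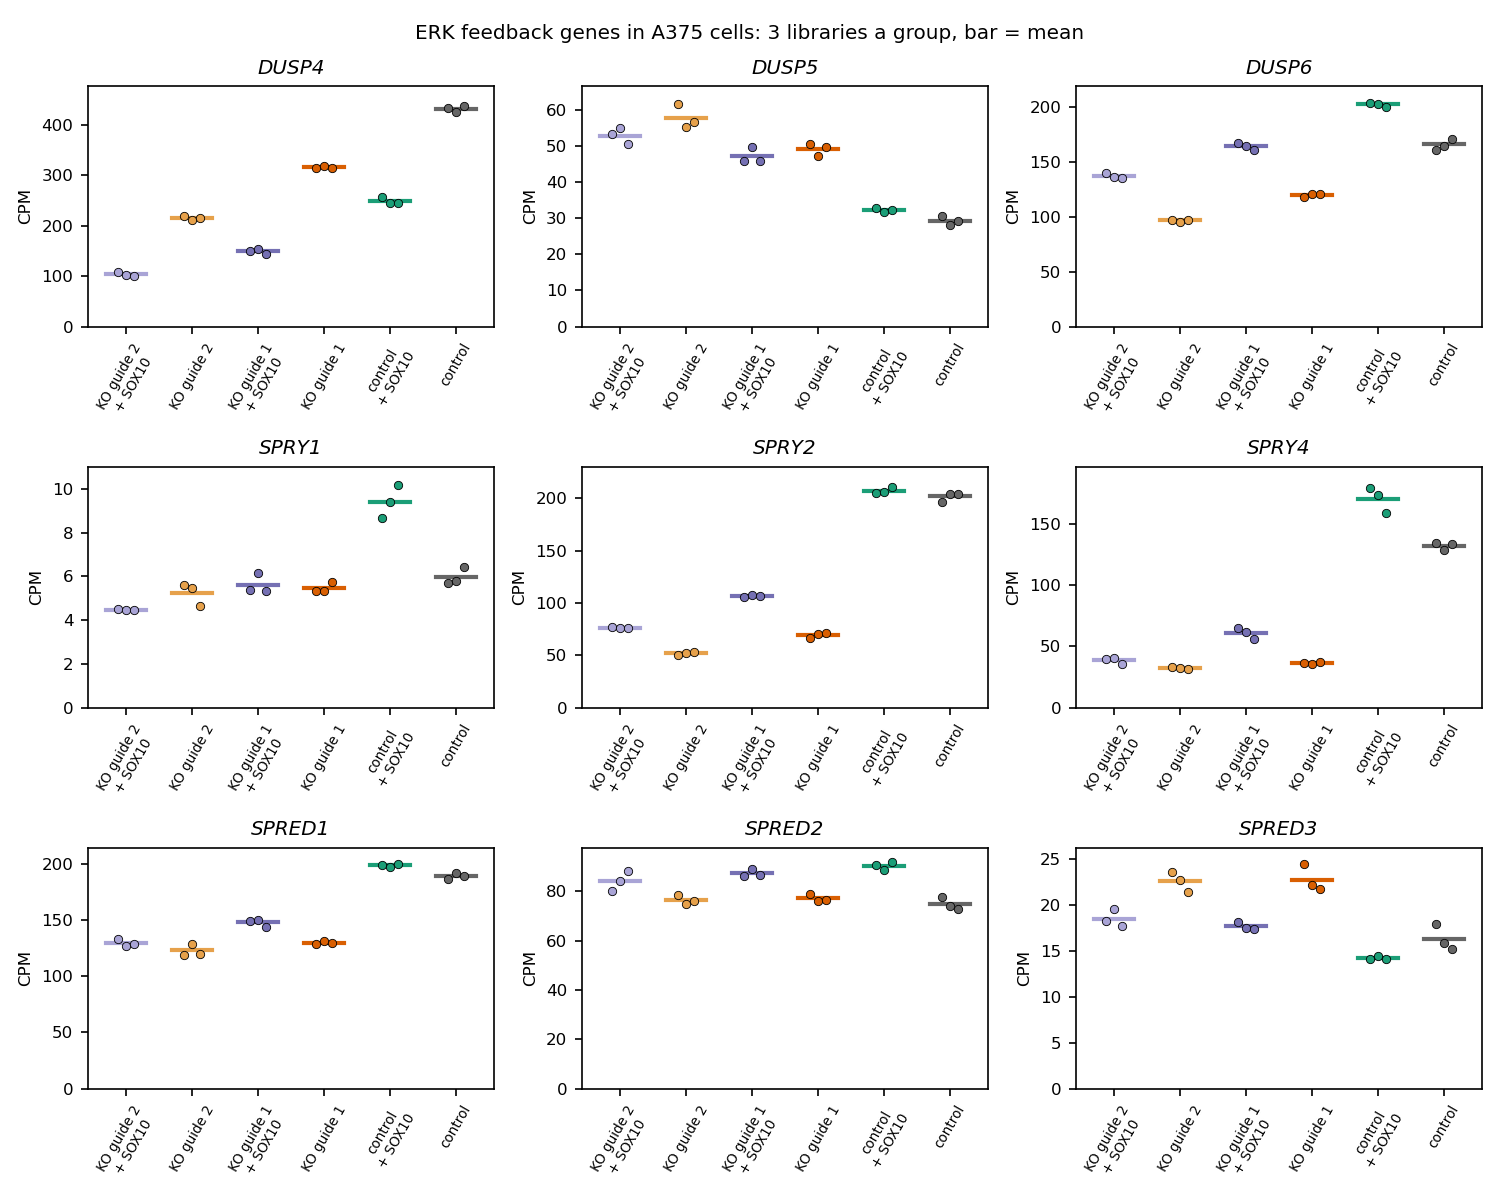
Level of each of the 9 genes in CPM with TMM-adjusted library sizes (y axis, from 0) in the 6 groups (x axis). Points are the 3 libraries of a group and bars are their mean. SPRY2, SPRY4 and SPRED1 were lower in all 12 knockout libraries than in all 6 control libraries, DUSP5 and SPRED2 were not, and DUSP4 was lower with SOX10 in each background.

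Each guide was also set against the same control libraries. With guide 2, 5 members were called lower and 2 higher, where 28.1% of all genes were lower, 27.9% higher and 55.9% either (under library-size scaling, 16.5% and 42.1% in that order). With guide 1, 5 were lower and 2 higher, where 26.4% of all genes were lower, 26.2% higher and 52.6% either (14.7% lower and 39.8% higher with library-size scaling). SPRY2 changed by −1.96 with guide 2 and −1.54 with guide 1 on the log2 scale, and SPRY4 by −2.03 and −1.86 in the same order. DUSP4 changed by −1.0 with guide 2 and −0.45 with guide 1, DUSP6 by −0.78 and −0.47, and DUSP5 by 0.99 and 0.75. SPRED1 had −0.63 with guide 2 and −0.54 with guide 1, and SPRED3 had 0.47 and 0.48. These comparisons share their control libraries, so their likeness is not independent evidence.

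The 2 guides were also compared directly, in a contrast that used no control mean, though the control libraries helped set the spread. That contrast tests whether the guides differ and gives no independent evidence of their likeness. Guide 2 lay further from the shared control mean for every member called. DUSP4 was 1.47-fold lower with guide 2 than with guide 1 (log2 difference −0.55, SE 0.029, adjusted p = 1.01e-18), SPRY2 was 1.34-fold lower (adjusted p = 1.08e-13) and DUSP6 1.24-fold lower (adjusted p = 1.93e-11). DUSP5 was 1.18-fold higher (adjusted p = 0.000123). In all, 4 members were lower and 1 higher with guide 2, where 6.09% of all genes were lower, 2.65% higher and 8.74% either (5.30% lower and 3.87% higher with library-size scaling). SPRY4, the fourth, had a log2 difference of −0.17 (adjusted p = 0.0442), and it missed the threshold without any 1 of the 6 libraries involved (adjusted p of 0.0727 to 0.163) and with library-size scaling (0.108). SPRED1 had a difference of −0.09 (adjusted p = 0.0506), which passed with DESeq2 (0.0289) and when genes under a mean CPM of 1 were dropped (0.036). Without replicate 2 of guide 2, the library that stood apart and the highest of its group for SPRED1 at 129 CPM against 119 and 120, that difference was −0.13 (adjusted p = 0.00182). SPRED2 and SPRED3 differed by −0.01 each (SE 0.034 and 0.057).

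With SOX10 overexpressed in both lines, guide 2 was again the lower of the 2 for 6 members and the higher for 1, where 7.01% of all genes were lower, 5.05% higher and 12.1% either (5.42% lower and 7.41% higher with library-size scaling). SPRY4 now differed by −0.67 (SE 0.050, adjusted p = 8.16e-11), with 35.5 to 40.3 CPM in guide 2 cells with SOX10 and 56.4 to 65.4 CPM in guide 1 cells with SOX10. DUSP4 differed by −0.52, SPRY2 by −0.49, SPRY1 by −0.32, DUSP6 by −0.26 and SPRED1 by −0.19, while DUSP5 differed by 0.16. SPRED2 and SPRED3 had adjusted p-values of 0.356 and 0.611. SPRY1 missed the threshold without replicate 2 of guide 1 with SOX10 (adjusted p = 0.121), as did DUSP5 without replicate 1 or 3 of guide 1 with SOX10 or replicate 2 of guide 2 with SOX10 (0.0551 to 0.0798).

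Overexpression of SOX10 in knockout cells raised SPRY2, SPRY4, DUSP6, SPRED1 and SPRED2 and lowered DUSP4, SPRED3 and, slightly, DUSP5. Of the 9 members, 5 were called higher and 3 lower, where 28.1% of all genes were higher, 28.1% lower and 56.2% either. The median log2 change of the members was 0.13 and that of all genes 0.00. SPRY2 had 76.9, 75.7 and 76.5 CPM in guide 2 cells with SOX10, against 51.8 ± 1.60 CPM in guide 2 cells without it (SD, n = 3). In guide 1 cells it had 106, 108 and 107 CPM with SOX10, against 66.4, 70.3 and 71.6 CPM without it. It was higher in every SOX10 library, 1.51-fold in the mean of both lines (log2 change 0.59, SE 0.022, adjusted p = 3.76e-25), and stayed far below control cells. SPRY4 rose 1.41-fold (log2 change 0.50, SE 0.036, adjusted p = 1.95e-12). Its gain was uneven, with 38.5 ± 2.64 CPM in guide 2 cells with SOX10 against 32.4 ± 0.520 CPM without it, and 61.2 ± 4.55 CPM in guide 1 cells with SOX10 against 36.4 ± 0.759 CPM without it (SD, n = 3 each).

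DUSP6 and DUSP4 went in opposite directions with SOX10. DUSP6 had 140, 136 and 135 CPM in guide 2 cells with SOX10, against 96.9, 95.5 and 97.0 CPM without it, and 167, 164 and 161 CPM in guide 1 cells with SOX10, against 118, 121 and 121 CPM without it. It rose 1.39-fold (log2 change 0.48, SE 0.020, adjusted p = 1.28e-23). DUSP4 had 109, 103 and 101 CPM in guide 2 cells with SOX10, against 220, 211 and 215 CPM without it, and 151, 153 and 145 CPM in guide 1 cells with SOX10, against 315, 319 and 314 CPM without it. It fell 2.08-fold (log2 change −1.06, SE 0.021, adjusted p = 4.04e-35), without overlap in either line. The ratio of DUSP4 to DUSP6 CPM, which does not depend on the scaling between libraries, was 0.762 ± 0.0132 in guide 2 cells with SOX10 and 2.23 ± 0.0311 without it, 0.913 ± 0.0179 in guide 1 cells with SOX10 and 2.63 ± 0.0381 without it, and 1.24 ± 0.026 in control cells with SOX10 and 2.61 ± 0.0653 in control cells (SD, n = 3 each). The ratio fell with SOX10 in all 3 pairs of groups, with no overlap of libraries.

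SPRED3 fell with SOX10 in knockout cells (log2 change −0.33, SE 0.041, adjusted p = 6.36e-09), with 17.4 to 19.5 CPM over both lines with SOX10 against 21.4 to 24.4 CPM without it. SPRED1 rose 1.09-fold in the mean of both lines (adjusted p = 9.07e-07), and unevenly. It had 127 to 133 CPM in guide 2 cells with SOX10 and 119 to 129 CPM without it, which overlapped. In guide 1 cells it had 144 to 150 CPM with SOX10 and 129 to 131 CPM without it, with no overlap. SPRED2 rose 1.11-fold (adjusted p = 4.7e-07). DUSP5 had a log2 change of −0.09 (adjusted p = 0.00809), and it missed the threshold without replicate 1 of guide 2 (adjusted p = 0.0691). SPRY1 was not called (log2 change −0.09, SE 0.065, adjusted p = 0.219).

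In control cells, which already held SOX10 at 354 CPM, overexpression raised SPRY1, SPRY4, DUSP6, SPRED2 and DUSP5 and lowered DUSP4 and SPRED3. Of the 9 members, 5 were higher and 2 lower, where 17.3% of all genes were higher, 17.2% lower and 34.4% either. DUSP4 had 257, 246 and 246 CPM in control cells with SOX10, against 433, 425 and 438 CPM in control cells, a fall of 1.73-fold (log2 change −0.79, SE 0.029, adjusted p = 7.01e-25). SPRY1 had 8.68, 9.43 and 10.2 CPM in control cells with SOX10, against 5.72, 5.81 and 6.42 CPM in control cells, and rose 1.57-fold without overlap (log2 change 0.65, SE 0.088, adjusted p = 6.1e-08). SPRY4 rose 1.29-fold to 159 to 180 CPM, against 129 to 135 CPM in control cells (adjusted p = 2.15e-07). DUSP6 rose 1.22-fold (adjusted p = 2.48e-11) and SPRED2 1.21-fold (adjusted p = 1.18e-08). SPRY2, at 205 to 211 CPM in control cells with SOX10 and 197 to 204 CPM in control cells, was not called (log2 change 0.04, SE 0.029, adjusted p = 0.34). SPRED1 just missed the threshold (log2 change 0.07, SE 0.029, adjusted p = 0.0561) and passed it with both other scalings, both other filters, the compared groups alone and DESeq2 (adjusted p of 0.0112 to 0.05). DUSP5 (log2 change 0.14, adjusted p = 0.0144) missed it without replicate 2 of the control cells (0.0991) or replicate 1 of the control cells with SOX10 (0.056). SPRED3 (log2 change −0.20, adjusted p = 0.00908) missed it without replicate 1 of the control cells (0.148).

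The SOX10 effect was then compared between knockout and control cells in the same fit. It differed for 6 of the 9 members, 2 with a more positive effect in knockout cells and 4 with a more negative one, where 18.1% of all genes were more positive, 15.1% more negative and 33.3% either. SPRY2 gained more in knockout cells, by a log2 difference of 0.55 (SE 0.037, adjusted p = 5.87e-16), and so did DUSP6, by 0.20 (adjusted p = 1.03e-05). SPRY1 went the other way, with a difference of −0.75 (SE 0.109, adjusted p = 4.64e-07). DUSP4 fell further in knockout cells, by −0.27 (adjusted p = 4.66e-08), and DUSP5 differed by −0.24 (adjusted p = 0.000776). SPRED2 differed by −0.12 (adjusted p = 0.0246), a call lost when any of 7 libraries was left out, among them replicates 2 and 3 of the control cells, replicates 1 and 3 of control cells with SOX10 and replicate 1 of guide 1, of guide 2 and of guide 2 with SOX10 (adjusted p of 0.0508 to 0.0917). For SPRY4 the difference was 0.13 (adjusted p = 0.0932), and it passed without replicate 1 of control cells with SOX10 (0.0247), replicate 3 of guide 1 with SOX10 (0.0121) or replicate 3 of guide 2 with SOX10 (0.0178). That value is a mean over unlike lines. SPRY4 averaged 61.2 CPM with SOX10 and 36.4 CPM without it in guide 1 cells, and 38.5 and 32.4 CPM in guide 2 cells. In control cells it averaged 171 and 132 CPM, and the difference from control cells was not tested for each guide. The difference was, for SPRED1, 0.06 (0.214; 0.0382 without replicate 2 of guide 2) and, for SPRED3, −0.13 (0.198; 0.0436 without replicate 1 of the control cells). The SOX10 transcript itself rose by a log2 of 2.15 in knockout cells and 0.35 in control cells, so the 2 effects compared here belong to rises of different size.

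**Figure D2:**
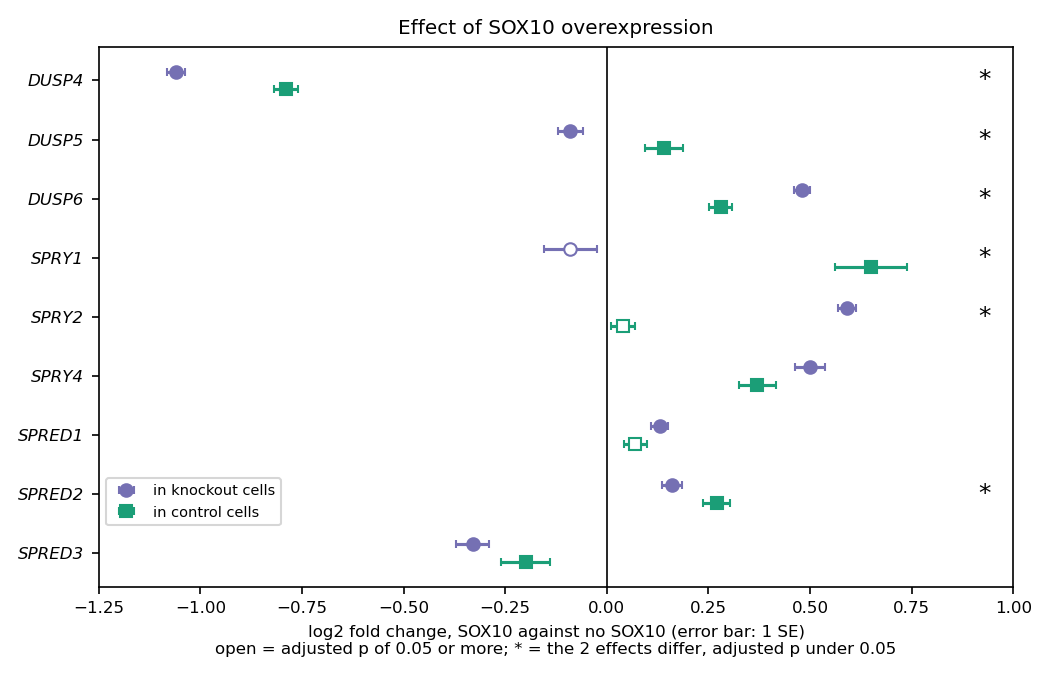
Log2 change with SOX10 overexpression (x axis, error bar 1 SE) for the 9 genes (y axis) in knockout cells, mean of both guides (circles), and in control cells (squares), with stars where the difference between the effects passed. DUSP4 lay at −1.06 in knockout cells and −0.79 in control cells, and SPRY1 at −0.09 and 0.65.

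Knockout cells with SOX10 were also set against control cells, to ask how far the members stood from the starting level once SOX10 had been added. All 9 members were called, 6 lower and 3 higher, where 27.9% of all genes were lower, 30.0% higher and 57.9% either. With library-size scaling 4 were lower and 3 higher, where 15.6% of all genes were lower and 43.5% higher. DUSP4 lay lowest relative to control, 3.45-fold lower (log2 change −1.79, SE 0.024, adjusted p = 2.78e-40). SPRY4 was 2.72-fold lower (log2 change −1.45, adjusted p = 6.47e-22), SPRY2 2.23-fold (−1.16, adjusted p = 3.7e-33) and SPRED1 1.37-fold (−0.45, adjusted p = 3.4e-19). DUSP6 was the nearest to control of those that had fallen, with 135 to 167 CPM in knockout cells with SOX10 and 161 to 171 CPM in control cells (log2 change −0.14, adjusted p = 2.31e-06). With library-size scaling its change was 0.00 (adjusted p = 0.878). SPRY1 had a log2 change of −0.26 (adjusted p = 0.00539), and −0.11 (0.246) with library-size scaling. DUSP5 stayed 1.71-fold higher (log2 change 0.77, adjusted p = 5.3e-20), SPRED2 was 1.15-fold higher (adjusted p = 3.47e-07) and SPRED3 1.11-fold (adjusted p = 0.0174). SPRED3 missed the threshold without replicate 2 or 3 of the control cells (0.0867 and 0.181), as did SPRY1 without replicate 3 of the control cells (0.0577).

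**Figure D3:**
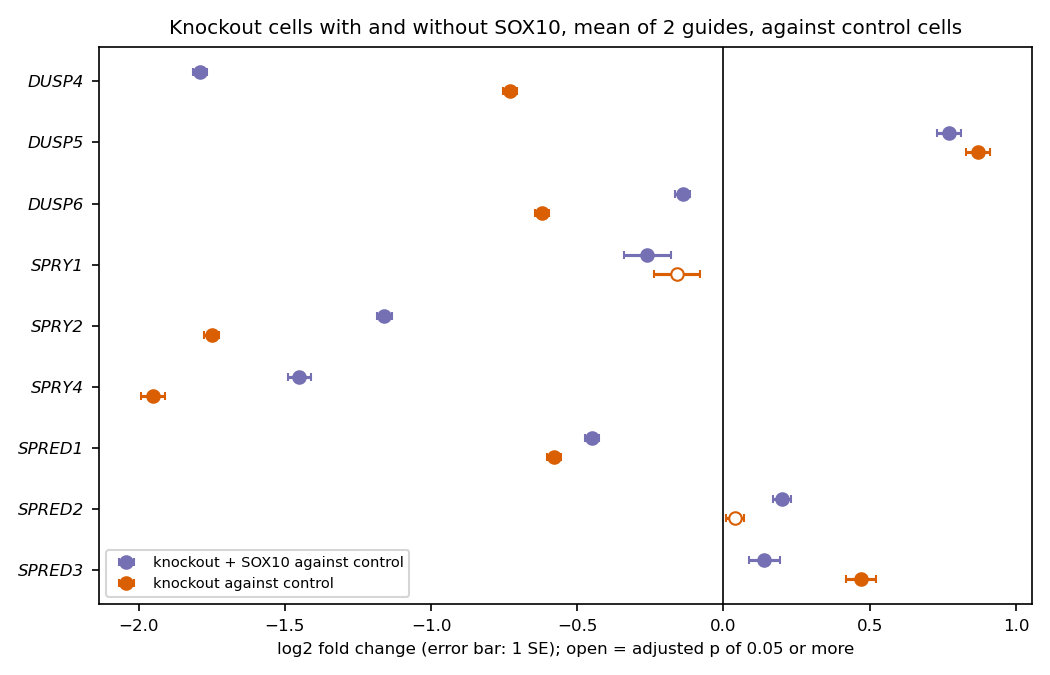
Log2 change against control cells (x axis, error bar 1 SE) for the 9 genes (y axis), for knockout cells with SOX10 (upper point) and without it (lower point), each the mean of both guides. Both sets of points use the same control libraries. DUSP4 lay at −1.79 with SOX10 and −0.73 without, DUSP6 at −0.14 and −0.62, and DUSP5 at 0.77 and 0.87.

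Among cells that all overexpressed SOX10, knockout lowered 7 members and raised 2, where 26.7% of all genes were lower, 28.2% higher and 55.0% either. With library-size scaling 6 were lower and 2 higher, where 14.8% of all genes were lower and 43.4% higher. SPRY4 was 3.52-fold lower in knockout cells (log2 change −1.82, SE 0.040, adjusted p = 2.25e-24), SPRY2 2.29-fold, DUSP4 2.00-fold, SPRED1 1.44-fold and DUSP6 1.34-fold. SPRY1, which was not called without SOX10, was 1.88-fold lower here, with 4.45 to 6.14 CPM in knockout cells with SOX10 against 8.68 to 10.2 CPM in control cells with SOX10 (log2 change −0.91, SE 0.074, adjusted p = 7.01e-14). DUSP5 was 1.55-fold higher and SPRED3 1.27-fold. SPRED2 had a log2 change of −0.08 (adjusted p = 0.0216), which became 0.07 (0.0543) with library-size scaling and −0.05 (0.102) when genes under a mean CPM of 1 were dropped. It also missed the threshold without replicate 1 or 3 of control cells with SOX10, replicate 1 of guide 1 with SOX10 or replicate 1 of guide 2 with SOX10 (0.051 to 0.103).

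Placed in order over the 6 groups, the members fell into different patterns. DUSP4 was highest in control cells and lowest in guide 2 cells with SOX10, and none of its 5 neighbouring pairs of groups overlapped. SPRY2 was highest in control cells with SOX10 and lowest in guide 2 cells, also with no overlap between neighbours. SPRY4 kept the same order as SPRY2, except that guide 2 cells with SOX10 and guide 1 cells overlapped. DUSP6 had the same order as well, with control cells and guide 1 cells with SOX10 overlapping. For SPRED1 the 3 lowest groups overlapped, guide 1 cells with guide 2 cells with SOX10, and these with guide 2 cells. DUSP5 had another order, highest in guide 2 cells at 57.8 CPM and lowest in control cells at 29.2 CPM, and guide 1 cells overlapped with and without SOX10. For SPRED2 only guide 2 cells with SOX10 and guide 1 cells were separated among neighbours.

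Per kilobase of annotated exon, which allows levels of different genes to be set side by side, the summed level of the 9 genes was 131 CPM per kb in guide 2 cells with SOX10 and 129 in guide 2 cells, 158 in guide 1 cells with SOX10 and 153 in guide 1 cells, against 231 in control cells with SOX10 and 235 in control cells. The sum was lower in each knockout group than in both control groups. DUSP4 took 11.0% of the sum in guide 2 cells with SOX10 and 22.9% in guide 2 cells, 13.1% in guide 1 cells with SOX10 and 28.5% in guide 1 cells, against 14.9% in control cells with SOX10 and 25.4% in control cells. SPRY2 took 13.2% in guide 2 cells and 15.0% in guide 1 cells, against 28.3% in control cells. DUSP5 took 17.1% and 12.3% in the same knockout groups, against 4.76% in control cells. SPRY1 took at most 1.03% in any group. The isoforms in use were not analysed here, so the exon length is an upper bound on the length of a transcript.

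**Figure D4:**
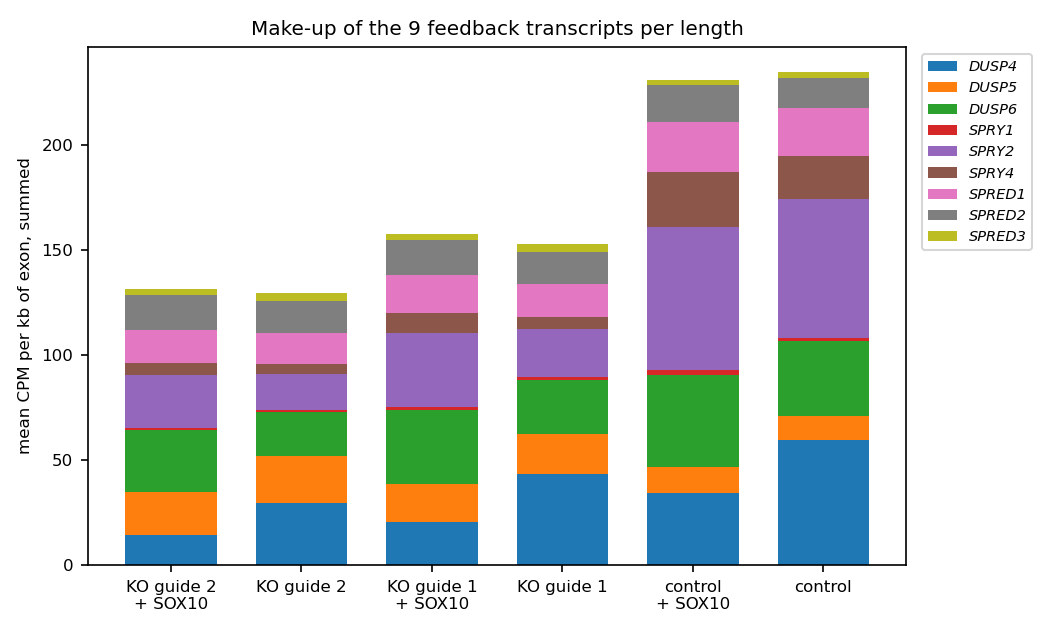
Mean level per kilobase of annotated exon (y axis, CPM per kb, from 0) of the 9 genes, stacked, in the 6 groups (x axis). The stacks reached 129 to 158 CPM per kb in the 4 knockout groups, against 231 and 235 in the 2 control groups, and the DUSP4 segment was smaller with SOX10 in each pair.

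Likeness of pattern is given as Pearson's r of log2 CPM over the 18 libraries, which fall into 6 groups and share their scaling, so that r mostly reflects the 6 group means. Among the members, SPRY4 and SPRED1 were most alike (r = 0.99), followed by SPRY2 with SPRED1 and SPRY2 with SPRY4 (r = 0.98 each), and DUSP6 with SPRY2 (r = 0.92). DUSP4 had r = 0.10 with DUSP6, and DUSP5 had r = −0.96 with SPRY2 and with SPRED1. Outside the members, the 2 genes most like SPRY2 were NHSL1 (r = 0.996) and the metalloprotease inhibitor gene TIMP3 (0.995), and those most like SPRY4 were NFATC2 (0.995) and AGMO (0.992). DUSP4 was closest to SH2B3 (0.996) and AHR (0.985), DUSP5 to ADAMTS6 (0.987) and GDPD5 (0.986), and SPRED1 to SLC39A6 (0.994) and SOX5 (0.993). DUSP6 was closest to HLA-DQA1 (0.993) and HLA-DQA2 (0.991), near-identical genes whose counts are uncertain. SPRED3 was closest to HRH1 (0.977), SPRY1 to CRTAP (0.963) and HEY1 (0.958), and SPRED2 to SMAP2 (0.957) and CYFIP2 (0.953).

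The rest of the pathway was read from gene lists in the knockout against control comparison, where 28.6% of all genes were higher and 29.5% lower, or 43.3% and 16.8% with library-size scaling. Of the 8 genes of a list of other MAP kinase phosphatases and SPRY3, 6 were higher and 2 lower, with a median log2 change of 0.27. DUSP10, which acts on JNK and p38, fell (log2 change −1.42, adjusted p = 9.39e-28), while DUSP1, an immediate-early phosphatase, rose (1.08, adjusted p = 6.06e-20), as did DUSP16 (0.27) and DUSP8 (2.46). DUSP8 was low throughout, at 0.639 CPM in guide 2 cells and 0.44 CPM in guide 1 cells, against 0.0955 CPM in control cells. Of 8 other inhibitors of receptor and ERK signalling, 2 were higher and 5 lower (median −0.17), or 2 and 3 with library-size scaling. RGS2 (1.14) and ERRFI1 (0.53), an inhibitor of EGFR, were higher, and LRIG1 (−1.03) and the ubiquitin ligase gene CBL (−0.54) lower. With SOX10 in knockout cells, DUSP10 rose by a log2 of 1.32 and DUSP1 fell (−0.53).

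In the cascade itself the calls went both ways. Of 16 genes from RAS to ERK, 6 were higher and 7 lower (median −0.04), or 8 and 4 with library-size scaling, under which 43.3% of all genes were higher and 16.8% lower. Among those that rose were MRAS (log2 change 0.79) and RRAS (0.61), which encode relatives of the RAS proteins. BRAF was at 40.4 CPM in guide 2 cells and 42.4 CPM in guide 1 cells, against 39.6 CPM in control cells, and was not called. Of 12 RAS regulators and adaptors, 9 were lower and 0 higher (median −0.18), against 29.5% of all genes lower and 28.6% higher. With library-size scaling 5 were lower and 4 higher, against 16.8% and 43.3% of all genes. RASA1 (−0.50), RASAL2 (−0.47), GAB2 (−0.71) and SOS2 (−0.42) had the lowest p-values. NF1, the partner of SPRED proteins, was at 157 CPM in guide 2 cells and 161 CPM in guide 1 cells, against 159 CPM in control cells, and was not called.

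Of 12 other genes that ERK activity is known to drive, 9 were lower and 3 higher in the knockout (median −0.57), against 29.5% of all genes lower and 28.6% higher. With library-size scaling 8 were lower and 3 higher, against 16.8% and 43.3% of all genes. The cyclin gene CCND1 had a log2 change of −1.51 (adjusted p = 1.52e-40), ETV5, an ETS factor gene, −1.15 (9.91e-33), EPHA4 −1.43 (3.18e-24) and FOSL1, an AP-1 subunit gene, −0.88 (6.6e-20). The 3 called higher were EPHA2 (0.24), EGR1 (0.27) and MYC (0.29). With SOX10 in knockout cells 5 of the 12 were higher and 6 lower, against 28.1% of all genes in each direction, with EPHA4 by 1.67, CCND1 by 0.61 and ETV5 by 0.27 among those higher, and FOSL1 by −0.26 among those lower. Levels of RNA are given throughout, and the activity of ERK was not analysed here.

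**Figure D5:**
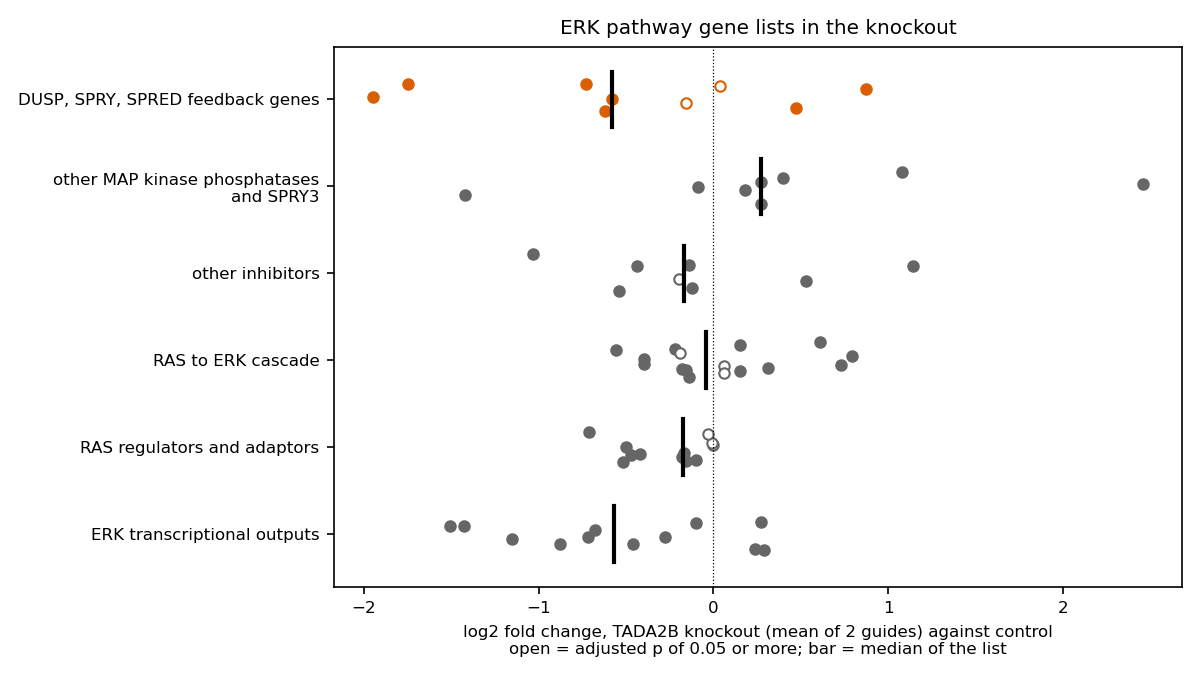
Log2 change in TADA2B knockout cells, mean of both guides, against control cells (x axis) for the members and 5 other lists of pathway genes (y axis). Each point is a gene, open where it was not called, and the bar is the list's median, which was −0.58 for the feedback genes, 0.27 for other phosphatases and SPRY3, and −0.57 for other ERK outputs.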

How the data were processed

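RNA-seq of 18 A375 libraries in 6 groups was deposited as 1 table of raw read counts per gene, which the authors made with HISAT2 and HTSeq on genome build hg38, per the submitters' processing notes. Tool versions, annotation and strand setting are not given in these sources, so reads of a gene and its antisense partner could not be told apart. Per the labels' protocols, libraries were made with a stranded mRNA kit.

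All 18 columns matched 1 sample title each. Exon lengths came from GENCODE 29. Symbols came from a separate list of gene names, which named 58207 of the 58721 genes, and from GENCODE 29 where that list had none. Genes were kept by filterByExpr in edgeR 4.0.16 (R 4.3.3), libraries were scaled by TMM, and a single robust quasi-likelihood model with a mean for each of the 6 groups took in every library (12 residual degrees of freedom, common biological variation 4.02%). The 10 contrasts were tested two-sided with Benjamini-Hochberg adjustment over 21060 genes. A run of the procedure on simulated data changed far fewer genes than were called here, so it does not test a shift of this breadth. Folds of called genes are fitted ones. The text describes all 9 members, up to 4 genes of each other list, those with the lowest p in the knockout contrast, and the 2 genes most like each member, except that some genes the rule picks are not reported here. Other genes of those lists (NF1, BRAF, EPHA2, EGR1, MYC, DUSP and marker genes with levels) were named after their values were seen. The members and lists were chosen with earlier results of these data known. Floors of 3 counts cover counting error only.

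Alternatives were RLE and library-size scaling, no filter, a filter at a mean CPM of 1, DESeq2 1.42.0, a fit of only the compared groups, a replicate block, and each library left out.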

Additional observations from a re-analysis of the deposited data

Results flagged for a closer look

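The effect of SOX10 overexpression differed between knockout and control cells for 6 members, by the test of the difference itself in edgeR's quasi-likelihood fit. Values are the log2 effect in knockout cells minus that in control cells. SPRY1 had −0.75, since it was not called in knockout cells (−0.09) and rose in control cells (0.65), and SPRY2 had 0.55, from 0.59 in knockout cells and 0.04 in control cells. DUSP4 had −0.27 (−1.06 in knockout cells and −0.79 in control cells) and DUSP6 had 0.20 (0.48 and 0.28 in the same order). DUSP5 had −0.24, from −0.09 in knockout cells and 0.14 in control cells, and SPRED2 had −0.12, from 0.16 and 0.27. The SOX10 transcript rose by 2.15 in knockout cells and by 0.35 in control cells, and the part of that difference in these values was not tested.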

How the results depend on the processing

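The number of members called stayed within 1.5 times its value in all 157 recounts over the 10 comparisons. With only 9 members, a count of 7 or more could not rise past that limit, so the recounts are a weak check. Of 1413 single values of a member under an alternative, 1358 kept direction and side of the threshold, 31 lost the call with direction kept, 22 gained it and 2 changed sign. Both that changed sign did so with library-size scaling and lost the call as well. They were DUSP6 in knockout cells with SOX10 against control cells (0.00 against −0.14), where no change was left, and SPRED2 in knockout against control cells that overexpressed SOX10 (0.07 against −0.08). That scaling shifted the all-gene median by 0.144 to 0.162 in comparisons of knockout with control cells. Leaving out single libraries gave 7 to 8 members called in the knockout comparison, 6 to 7 for SOX10 in control cells, 7 to 8 for SOX10 in knockout cells, 7 to 9 for knockout cells with SOX10 against control cells and 5 to 7 for the difference of the SOX10 effects. The replicate numbers were not taken to pair the samples, since same-numbered libraries of different groups had residual correlations of −0.030 to 0.071, with 0 of 45 pairs over 0.1. As a hint from the data the other way, 11 of 18 libraries, though not all, were closest to their own number. With the replicate block, 7 members were called in the knockout comparison, 8 for SOX10 in control cells and 7 for the difference of the SOX10 effects, against 7, 7 and 6 without it. The calls gained with the block were SPRED1 for SOX10 in control cells (adjusted p = 0.0445), SPRY4 for the difference of the SOX10 effects (0.0314) and SPRED1 between the guides without SOX10 (0.0367). SPRY1, with 271 to 702 counts per library, was the member whose values depth limited most.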

Other observations

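IL17RD, another inhibitor of receptor signalling, had a log2 change with SOX10 of −0.98 in knockout cells (adjusted p = 2.23e-13) and −1.90 in control cells (adjusted p = 3.29e-16) by edgeR's quasi-likelihood test. It averaged 3.19 CPM in guide 2 cells with SOX10 and 4.79 CPM without it, 3.05 CPM in guide 1 cells with SOX10 and 7.87 CPM without it, and 1.89 CPM in control cells with SOX10 and 7.02 CPM in control cells. It was chosen for mention after its values were seen.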
